A study of Solanum lycopersicum with 12 samples.

Results

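The loci described here belong to the machinery by which tomato roots (Solanum lycopersicum) take up iron and tomato cells store it. They are 9 of the 35976 loci in the deposited table, chosen by locus identifier: the regulators FER (Solyc06g051550) and a bHLH factor (Solyc10g079680), the transporters IRT1 (Solyc02g069200), IRT2 (Solyc02g069190), NRAMP1 (Solyc11g018530) and NRAMP3 (Solyc02g092800), the reductase FRO1 (Solyc01g094910), nicotianamine synthase (Solyc01g100490) and a ferritin (Solyc06g050980). All 9 were found. The table gives identifiers without gene names, so the names are those of the list by which the loci were chosen. Of 6 gene symbols looked up in RefSeq, 4 were present, each on the chromosome that the locus identifier names. Only the chromosome was compared, so this does not check which locus on it carries the name.

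Wild-type plants were sprayed on the leaves with PSI-475, a biostimulant, at 2.5 mL per L, or with water. The first spray was given at 65 days of age and salinity followed 1 day later, with a second spray after 27 days of it. All plants, the water-sprayed ones included, were irrigated with 50 mM NaCl (5.8 dS per m) and sampled at 127 days, 2 h after the lights went off. The 4 groups were root of PSI-475-treated plants, root of untreated plants, young leaf of treated plants and young leaf of untreated plants, with 3 libraries each. Whether replicates were separate plants is not stated, so the spread behind each p-value is that of these libraries and could be technical. Values are FPKM (fragments scaled to the length of the locus and the depth of the library), and the library totals recovered from them ran from 17108347 to 22993130 fragments.

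Tomato, like other plants outside the grasses, takes up iron by reducing it first. A ferric chelate reductase at the root surface converts ferric to ferrous iron, and a ZIP family transporter carries it into the cell. FER is the basic helix-loop-helix regulator that tomato roots need to switch on these genes when iron is short, and it works together with other bHLH proteins. Nicotianamine chelates iron so that it can move within and between cells, and ferritin stores it in plastids.

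In roots, 7 of the 9 loci rose in treated plants and FRO1 fell (limma on log2(FPKM + 1), Benjamini-Hochberg adjusted p under 0.05 over 18277 loci). Of all loci tested, 52.0% rose and 24.5% fell, so a call by itself says little in this comparison, and the sizes say more. The rises ran from 1.23 on the log2 scale for ferritin to 2.25 for nicotianamine synthase, and 7.74% of tested loci had a higher value than ferritin. Adding 1 FPKM understates the change of low loci, so well-expressed loci rank higher on this scale. With limma-voom on the recovered fragments, which adds no 1 FPKM, the share with a higher value ran from 0.29% for IRT1 to 11.7% for ferritin. The ninth locus, the bHLH factor, was below the filter of a mean of 1 FPKM. IRT1 passed that filter only through the treated libraries and FRO1 only through the untreated ones, so these had to differ to be tested, and the count of 7 and 1 is not independent of the filter. Without the filter all 9 loci could be fitted, 8 rose and 1 fell, against 37.9% and 20.0% of 26608 loci. The median change of the 9 was then 1.55, beside 0.099 for all loci. That background adds loci under 1 FPKM, whose change on this scale is held near 0. With the filter the median of all loci was 0.28, so the unfiltered contrast is widened by the background. The added rise is that of the bHLH factor, from 11 fragments in treated and 1 in untreated roots. The list was chosen with earlier results of these data known.

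**Figure D1:**
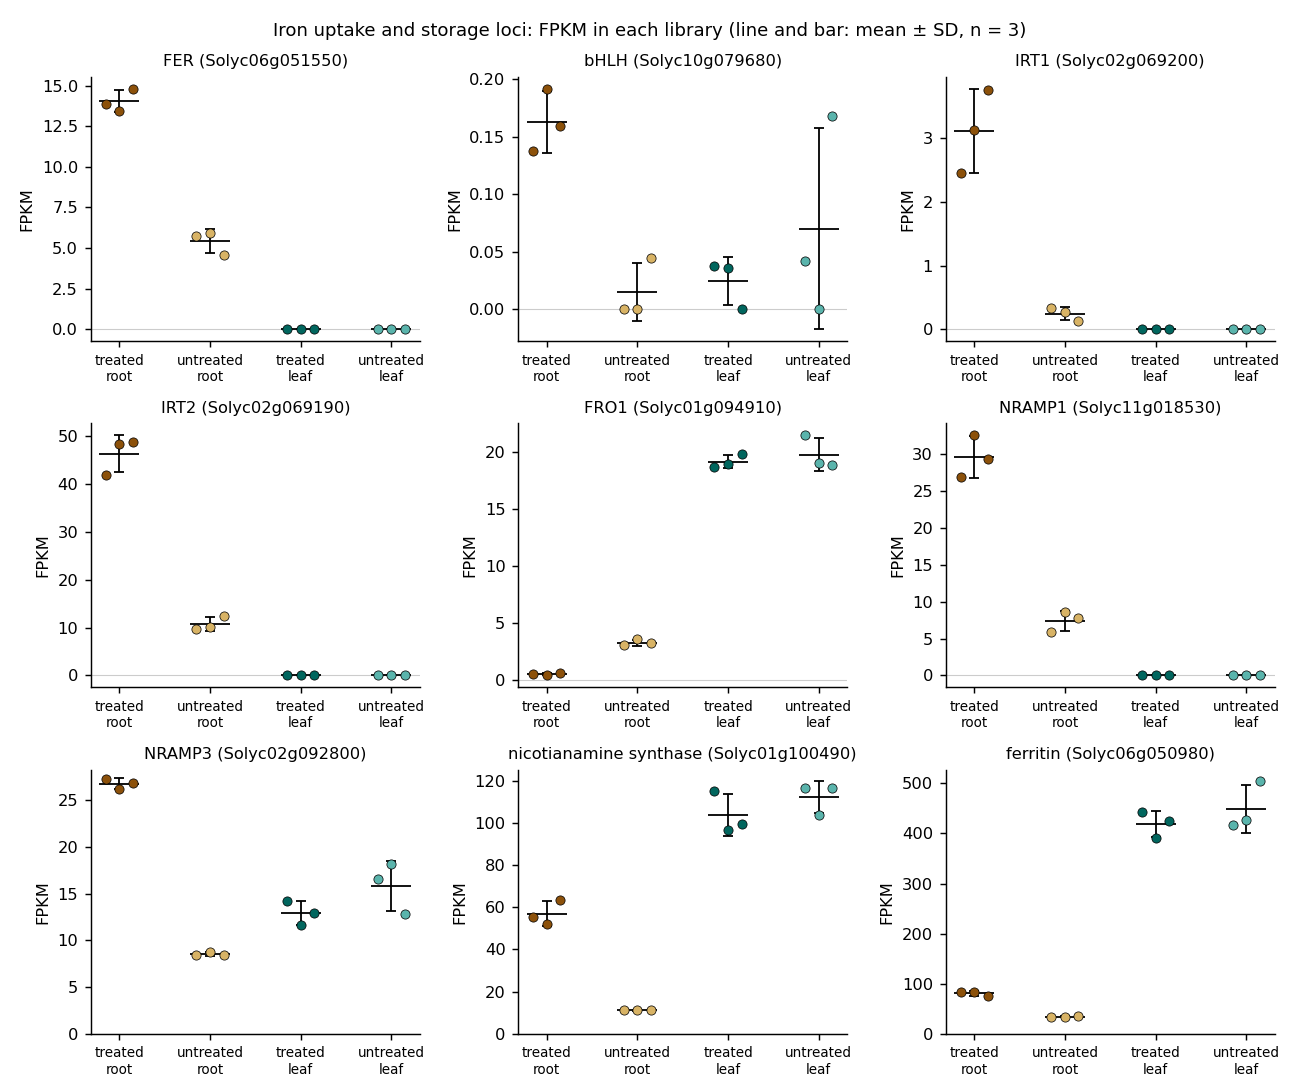
FPKM of each locus in each library, by group, on linear axes that differ between panels; points are libraries, and the line and bar give the mean ± SD of 3. FER, IRT1, IRT2 and NRAMP1 are at 0 in all 6 leaf libraries and higher in treated than in untreated root, while FRO1 is lower in treated root.

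FER, the regulator, rose in treated roots. It had 13.9, 13.5 and 14.8 FPKM in treated roots, against 5.74, 5.95 and 4.57 FPKM in untreated roots. Every treated library lay above every untreated one, as was the case with treated higher for 53.6% and with treated lower for 25.6% of tested loci. The mean was 14.0 ± 0.675 FPKM in treated and 5.42 ± 0.740 FPKM in untreated roots (SD, n = 3 each), which is 1.23 on the log2 scale (SE 0.097, limma adjusted p = 7.17e-06).

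The bHLH factor Solyc10g079680 was nearly silent. It had 3, 4 and 4 fragments in the treated root libraries, against 0, 0 and 1 in the untreated root libraries. Summed and scaled to depth, this is a ratio of 10.7 with an exact 95% counting interval of 1.56 to 461, which covers counting error only. Leaf libraries held 1, 1 and 0 fragments in treated and 1, 0 and 4 in untreated plants. At 0.163 FPKM in treated and 0.0147 FPKM in untreated roots, its level was below every other locus of the list in root. In the fit without a filter its log2 change in root was 0.20 (limma adjusted p = 0.0102), which rests on these few fragments.

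IRT1 and IRT2, the ferrous iron transporters, have adjacent locus numbers on chromosome 2 and differed widely in level. IRT2 was the main one, at 41.9, 48.4 and 48.8 FPKM in treated roots, against 9.66, 10.1 and 12.5 FPKM in untreated roots. The groups did not overlap, and the log2 change was 2.01 (SE 0.10, limma adjusted p = 5.18e-07), a value exceeded by 1.32% of tested loci. With limma-voom, 2.91% of tested loci had a higher value than IRT2. IRT1 had 2.45, 3.13 and 3.77 FPKM in treated roots, against 0.338, 0.269 and 0.133 FPKM in untreated roots. It was thus low in untreated roots, where the 3 libraries held 7, 6 and 3 fragments, against 53, 65 and 94 in treated roots. On the log2(FPKM + 1) scale IRT1 rose by 1.71 (SE 0.15, limma adjusted p = 1.41e-05). That scale understates the change of low loci: the ratio of summed fragments, scaled to depth, was 12.9, with an exact 95% counting interval of 7.76 to 23.0. IRT2 stood above IRT1 in every root library, by 13.0 to 17.1 times in treated and 28.6 to 93.9 times in untreated roots. The counting of reads that match related loci such as these is not described in the sources used here, so their split is uncertain.

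FRO1, the ferric chelate reductase of the list, moved the other way. Other reductase loci could not be looked up, so this does not give the reductase RNA of the root as a whole. FRO1 was higher in leaf, at 19.8 FPKM in untreated leaf against 3.27 FPKM in untreated root. Whether this locus is the reductase of the root surface was not tested. FRO1 had 0.515, 0.390 and 0.568 FPKM in treated roots, from 22, 16 and 28 fragments. In untreated roots it had 3.05, 3.56 and 3.21 FPKM, from 125, 157 and 143 fragments. The groups did not overlap. The mean of 0.491 ± 0.0914 FPKM in treated roots was 6.67-fold below that of 3.27 ± 0.259 FPKM in untreated roots (SD, n = 3 each). The log2 change was -1.52 (SE 0.11, limma adjusted p = 5.19e-06), and 5.43% of tested loci had a lower value, against 2.65% with limma-voom. FRO1 and IRT1 changed places in the order of levels: IRT1 was above FRO1 in every treated root library and below it in every untreated one.

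**Figure D2:**
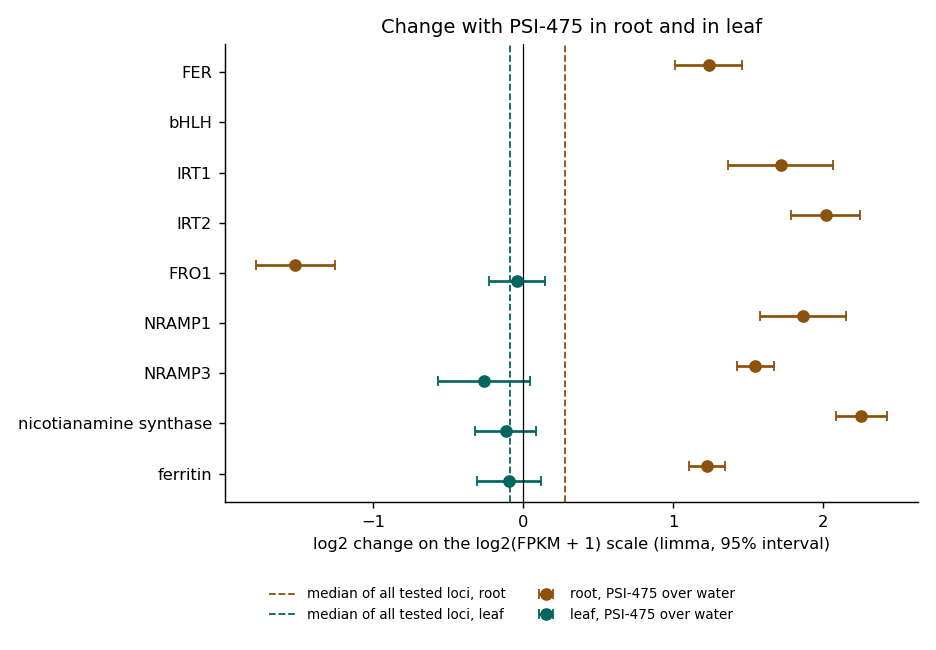
Log2 change of each tested locus with PSI-475 in root (brown) and in leaf (green) on the log2(FPKM + 1) scale, with 95% intervals from limma on 3 libraries a group; dashed lines mark the medians of all tested loci, 0.28 in root and -0.088 in leaf. In root 7 intervals lie above 0 and that of FRO1 below it, while all 4 leaf intervals include 0; loci below the filter have no point.

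The NRAMP proteins are divalent metal transporters, and in Arabidopsis NRAMP3 releases iron from the vacuole. NRAMP1 had 26.8, 32.5 and 29.3 FPKM in treated roots, against 5.94, 8.59 and 7.75 FPKM in untreated roots. NRAMP3 had 27.3, 26.1 and 26.8 FPKM in treated roots, against 8.39, 8.74 and 8.38 FPKM in untreated roots. Neither pair of groups overlapped. NRAMP1 rose by 1.87 on the log2 scale (SE 0.12, limma adjusted p = 2.6e-06) and NRAMP3 by 1.55 (SE 0.054, limma adjusted p = 7.38e-08). In level the libraries of NRAMP1 and NRAMP3 overlapped in treated roots as in untreated roots.

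Nicotianamine synthase, the enzyme that makes the chelator nicotianamine, had the largest rise of the list on the log2(FPKM + 1) scale. It had 55.2, 52.0 and 63.4 FPKM in treated roots, against 11.0, 11.0 and 11.2 FPKM in untreated roots. The untreated libraries were close together and far below the treated ones. The means were 56.9 ± 5.88 FPKM in treated and 11.1 ± 0.110 FPKM in untreated roots (SD, n = 3 each), a 5.13-fold difference and 2.25 on the log2 scale (SE 0.074, limma adjusted p = 5.32e-08). Of all tested loci, 0.717% had a higher value, against 2.03% with limma-voom.

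Ferritin, the storage protein, was the most abundant of the 9 in root. It had 83.9, 83.1 and 75.1 FPKM in treated roots, against 34.0, 33.3 and 34.4 FPKM in untreated roots, again without overlap. The means were 80.7 ± 4.83 FPKM in treated and 33.9 ± 0.571 FPKM in untreated roots (SD, n = 3 each), which is 1.23 on the log2 scale (SE 0.052, limma adjusted p = 2.21e-07). Ferritin stood at 1.18 to 1.60 times nicotianamine synthase in treated roots, against 3.02 to 3.08 times in untreated roots.

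By mean FPKM, the order in treated roots was ferritin, nicotianamine synthase, IRT2, NRAMP1, NRAMP3, FER, IRT1, FRO1 and the bHLH factor. In this order only the neighbours NRAMP1 and NRAMP3 overlapped between libraries. In untreated roots the order was ferritin, nicotianamine synthase, IRT2, NRAMP3, NRAMP1, FER, FRO1, IRT1 and the bHLH factor. There the libraries of nicotianamine synthase overlapped those of IRT2, those of NRAMP3 overlapped those of NRAMP1, and the highest of FER lay just above the lowest of NRAMP1. RNA from whole tissue was measured, so a change in the share of cells that express a locus and a change in RNA per cell cannot be told apart.

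The balance of all root loci depended on scaling. As deposited, the median root locus changed by 0.28 on the log2 scale. With median-of-ratios scaling it was at 0.026, and 36.2% of loci rose and 34.6% fell. Measured from the median of the values as deposited, the 7 rises ran from 0.95 to 1.98 and FRO1 was at -1.80. With median-of-ratios scaling, measured from the median of that setting, the rises ran from 0.92 to 1.95 and FRO1 was at -1.70. The calls of all 8 loci stood.

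In leaf, the list divided in a different way. FER, IRT1, IRT2 and NRAMP1 had 0 fragments in all 3 treated and all 3 untreated leaf libraries. A count of 3 fragments, the limit that a count of 0 allows, would be 0.0593 to 0.0750 FPKM for FER in these libraries. Ferritin and nicotianamine synthase were abundant there, and only 0.423% and 3.00% of loci had a higher mean in untreated leaf. Ferritin had 442, 390 and 425 FPKM in treated leaf, against 417, 426 and 504 FPKM in untreated leaf. Nicotianamine synthase had 115, 96.5 and 99.4 FPKM in treated leaf, against 117, 104 and 117 FPKM in untreated leaf. In each case the groups overlapped.

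FRO1 had 18.7, 19.0 and 19.8 FPKM in treated leaf, against 21.5, 19.0 and 18.9 FPKM in untreated leaf. NRAMP3 had 14.2, 11.7 and 12.9 FPKM in treated leaf, against 16.5, 18.1 and 12.8 FPKM in untreated leaf. These groups overlapped as well. None of the 4 loci was called with PSI-475 in leaf by limma, where 13.5% of 18405 loci rose and 18.8% fell. At an unadjusted p under 0.05 the count was also 0, and limma-voom on the recovered fragments called 0. The log2 changes had 95% intervals of -0.23 to 0.14 for FRO1, -0.57 to 0.046 for NRAMP3, -0.32 to 0.087 for nicotianamine synthase and -0.31 to 0.12 for ferritin. Without untreated leaf replicate 3, NRAMP3 was called lower, with a log2 change of -0.40 (limma adjusted p = 0.0208), against -0.26 (limma adjusted p = 0.17) with all libraries.

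The difference between the tissues' responses was itself tested in the 12 libraries. IRT1 and the bHLH factor were below the filter there. Of the other 7 loci, 6 were affected more positively in root than in leaf and FRO1 more negatively, against 46.6% and 20.8% of 19324 loci. Nicotianamine synthase differed by 2.37 on the log2 scale (SE 0.12, limma adjusted p = 7.87e-09) and NRAMP3 by 1.81 (SE 0.15, limma adjusted p = 5.43e-07). Ferritin differed by 1.32 (SE 0.11, limma adjusted p = 4.44e-07) and FRO1 by -1.48 (SE 0.12, limma adjusted p = 4.23e-07). FER, IRT2 and NRAMP1 are at 0 in leaf and passed the filter only through root, so their value is the root change restated, the count of 6 is partly fixed by the filter, and only the other 4 loci compare a measured leaf effect with a root effect. With limma-voom the differences of these 3 were 1.59 (SE 0.98, adjusted p = 0.171) for FER, 2.32 (SE 1.06, adjusted p = 0.0667) for IRT2 and 2.20 (SE 1.10, adjusted p = 0.0932) for NRAMP1. These 3 were not called, with larger standard errors than in limma on log2(FPKM + 1). With 0 fragments in leaf, limma-voom has no measured leaf effect for them either. The sizes of its values are therefore not set against those of limma on log2(FPKM + 1).

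Not all of the loci were root genes in these plants. Comparing untreated root with untreated leaf, 3 of the 7 loci tested were higher in root and 4 were lower, against 33.1% and 48.1% of 19324 loci. The 3 higher ones, FER, IRT2 and NRAMP1, are at 0 in leaf and passed the filter only through root, so they had to be higher there, and nothing is read from this count. Set against a floor of 3 fragments per leaf library, FER was at least 75.8-fold higher in untreated root, IRT2 at least 72.0-fold and NRAMP1 at least 53.4-fold. For IRT1, which was not tested here, the bound was only 1.90-fold, from 16 fragments summed in untreated root. FRO1 was 6.04-fold lower in untreated root than in untreated leaf, nicotianamine synthase 10.1-fold and ferritin 13.2-fold. NRAMP3 was 1.86-fold lower, at 8.50 ± 0.205 FPKM in untreated root and 15.8 ± 2.71 FPKM in untreated leaf (SD, n = 3 each; log2 difference -0.81, SE 0.11, limma adjusted p = 1.33e-05). By these levels FER, IRT1, IRT2 and NRAMP1 were detected in root only, FRO1, NRAMP3, nicotianamine synthase and ferritin were lower in untreated root than in untreated leaf, and the bHLH factor was nearly absent from either tissue.

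In treated plants these distances were different. NRAMP3 stood at 26.7 ± 0.570 FPKM in treated root and 12.9 ± 1.28 FPKM in treated leaf (SD, n = 3 each), 2.07-fold higher in root without overlap, as was true with root higher for 46.5% and with root lower for 34.5% of the loci. Nicotianamine synthase was 1.82-fold lower in treated root than in treated leaf and ferritin 5.19-fold lower. FRO1 was 39.1-fold lower. These comparisons share the treated root libraries with the root comparison above and were not tested separately.

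The root changes of FER, IRT1, IRT2 and NRAMP1 can be set beside those of other loci with the same leaf pattern. Of the 18277 loci tested in root, 212 had 0 fragments in all 6 leaf libraries, like these 4. Of these, 131 rose and 49 fell, or 61.8% and 23.1%, beside 52.0% and 24.5% of all tested loci, and 99 rose by at least 2-fold on the log2(FPKM + 1) scale, or 46.7%, beside 12.3% of all tested loci. Their median log2 change was 0.90. The 1620 loci at least 2 higher on the log2 scale in untreated root than in untreated leaf had 351 rises and 1141 falls and a median of -1.12. FER, IRT2 and NRAMP1 belong to that set too, and were among its 193 rises of at least 2-fold. Of the loci at least 2 lower in untreated root than in untreated leaf, which include FRO1, nicotianamine synthase and ferritin, 1381 were tested in root. There 1057 rose and 83 fell, 36.2% rose by at least 2-fold and the median was 0.77. Rises were thus frequent in leaf-higher loci too. These sets were chosen after values had been seen, those set by the tissue difference share the untreated root libraries with the comparison, and none was tested.

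**Figure D3:**
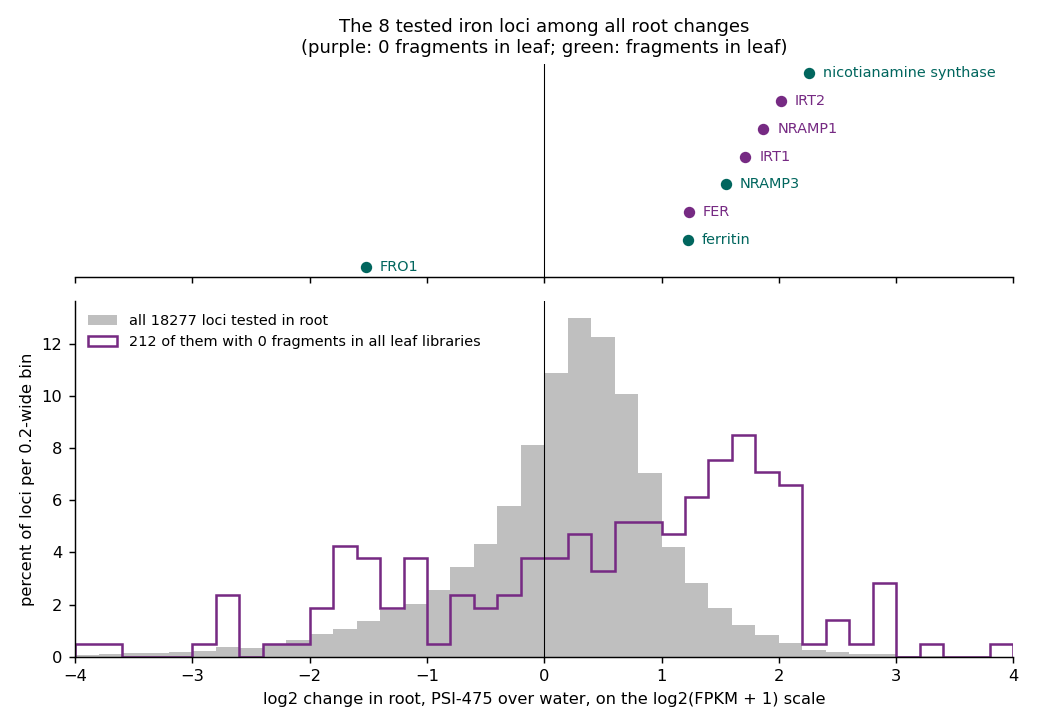
Log2 change in root with PSI-475 on the log2(FPKM + 1) scale for the 8 tested iron loci (upper panel, purple where leaf has 0 fragments) above the distribution of all 18277 tested loci (grey) and of the 212 with 0 fragments in leaf (purple line), as percent of loci per 0.2-wide bin. The 7 loci that rose lie between 1.23 and 2.25, to the right of the bulk, and FRO1 at -1.52 to its left; 57 loci beyond 4 in either direction are off the axis.

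Loci numbered next to the iron loci were called in shares near those of all loci. Within 30 locus numbers of the 9 there were 38 other loci in the table, and 27 could be tested in root. Of these 13 rose, 6 fell and 8 were not called, with a median log2 change of 0.27, beside 52.0% and 24.5% called and a median of 0.28 for all loci. Their changes ran from -3.95 to 1.65. IRT1 and IRT2 are the only adjacent numbers within the list.

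Likeness of pattern over the 12 libraries was described by Pearson's r of log2(FPKM + 1) with no test, since the points share 2 tissues and fall into root and leaf libraries. Among 19323 loci, the one most like FER was Solyc03g096540 (r = 0.999), with means of 145 FPKM in treated root, 26.6 FPKM in untreated root and 0 in leaf. IRT2 was 67th in likeness to FER (r = 0.996) and NRAMP1 89th (r = 0.995). NRAMP3 was 8297th (r = 0.326), nicotianamine synthase 13647th (r = -0.601) and ferritin 16258th (r = -0.857), though these rose in treated root as FER did. Unlike FER they had fragments in leaf, so the order also reflects the difference between the tissues. At the other end, FRO1 was 19303rd (r = -0.994). Most like ferritin was Solyc10g051310 (r = 0.999), with means of 28.9 FPKM in treated root and 16.4 FPKM in untreated root, and of 96.0 FPKM in treated leaf and 96.5 FPKM in untreated leaf. Nicotianamine synthase was 3322nd in likeness to ferritin (r = 0.924).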

How the data were processed

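Each library was made from RNA of 30 mg of tissue, per the labels' protocols. Of software, featureCounts, fastp and DESeq2 are named without version, per the submitters' processing notes. Which aligner, build, annotation and strand setting were used is not given in the sources used here. The deposited values are FPKM made by the authors, one column per library. Library totals and locus lengths were recovered from their digits as the values that make counts whole within 0.001, and the whole fragments so obtained summed to 99.991% or more of each total. A factor common to all counts of a locus would be lost. The fragments serve depth, floors and limma-voom.

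Loci whose mean over the fitted libraries reached 1 FPKM were tested 2-sided on log2(FPKM + 1) by limma 3.58.1 (R 4.3.3, trended prior), adjusted by Benjamini-Hochberg over all loci, threshold 0.05. Each tissue was fitted on its own 6 libraries, the difference of effects and the tissue comparison on all 12. The code was run on simulated fragments with the same set spread for root and leaf, so this does not check the calls at the spread of these libraries. The 9 loci and the comparisons were chosen with earlier results of these data known. All 9 are named; of other loci only the most like FER and ferritin are, since identifiers carry no names: 0 were found in the RefSeq gene table, so a list of other iron genes and leaf marker genes by description could not be evaluated. Replicate pairs differed beyond sampling noise (chi-square over degrees of freedom 2.22 to 17.8). Other settings changed the pseudocount, filter, scaling, count model, replicate block or fitted libraries, or left out single replicates. Plots used matplotlib 3.10.9.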

Additional observations from a re-analysis of the deposited data

Results flagged for a closer look

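In the test of the difference between the root and leaf effects of PSI-475, 7 loci passed (limma, adjusted p under 0.05 over 19324 loci), where 46.6% of all loci had a higher and 20.8% a lower effect in root. As root effect minus leaf effect on the log2 scale, the values were 1.23 for FER, 2.01 for IRT2, 1.87 for NRAMP1, 1.81 for NRAMP3, 2.37 for nicotianamine synthase, 1.32 for ferritin and -1.48 for FRO1. For FER, IRT2 and NRAMP1 all leaf values are 0, so the test repeats their root change, and limma-voom did not call them (adjusted p = 0.171, 0.0667 and 0.0932). Only NRAMP3, nicotianamine synthase, ferritin and FRO1 have a measured leaf effect to differ from. The loci share all the treated and untreated root and leaf libraries, so the 7 differences are not independent of each other.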

How the results depend on the processing

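Of 381 recomputed log2 changes of the loci tested, 375 kept their direction and their side of the threshold. FRO1 in leaf, which was not called, turned to 0.038 with median-of-ratios scaling and ran from -0.073 to 0.016 over the replicates left out, positive without untreated leaf replicate 1. The number of loci of the list called lower in leaf was 0 to 1 over the replicates left out. Those with a higher effect in root numbered 3 with limma-voom, against 6, as the standard errors of FER, IRT2 and NRAMP1, at 0 in leaf, rose to 0.98, 1.06 and 1.10. In root, limma-voom, which adds no 1 FPKM, put IRT1 at 3.63 and FRO1 at -2.71 on the log2 scale. Leaving out a root library kept root log2 changes at 1.14 to 1.29 for FER and -1.56 to -1.47 for FRO1. Correlations of deviations between same-numbered libraries were -0.0056 to 0.040 in root and -0.24 to 0.094 in leaf. Differently numbered leaf libraries had -0.23 to 0.31. With 3 libraries a group, these values cannot settle whether the replicate numbers pair the samples. The replicate block left 7 loci higher and 1 lower in root and changed no call of the list. Over all loci, leaf falls numbered 2283 with median-of-ratios scaling, 2022 without treated leaf replicate 3 and 2095 without replicate 1 of that group, against 3464. Higher effects in root numbered 5684 with median-of-ratios scaling, against 9008. That scaling moved the part of rises among calls to 51.1% in root, against 68.0%, to 56.4% in leaf, against 41.7%, and to 49.3% in the difference of effects, against 69.2%. Depth limits IRT1 in untreated root and the bHLH factor everywhere.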
